A study of Mus musculus with 6 samples.

Results

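The genes described here are those through which an epithelium moves salt and water into or out of the uterine lumen. They are the aquaporins Aqp1, Aqp3, Aqp4, Aqp5 and Aqp8, the chloride channel gene Cftr, the cotransporter gene Slc12a2, and Scnn1a, Scnn1b and Scnn1g, which encode the alpha, beta and gamma subunits of the epithelial sodium channel ENaC. They were taken by symbol, and all 10 were found among the 44788 genes of the count table. Of these 10 genes, 9 had enough reads to be tested, and Scnn1g, with 16 reads in all, did not.

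The 6 libraries were made from the endometrium, or uterine lining, of ICR mice with adenomyosis, in which glands and stroma of the lining grow into the uterine muscle. All animals, controls included, had been given oral tamoxifen at 2.7 µmol/kg as newborns on days 2 to 5. The 3 agonist libraries came from a group of 8 mice that received Decapeptyl, a GnRH agonist (labelled Decapetyl), at 1.5 µg per 100 g body weight per day on days 3 to 9 of estrus, 75 days later. The 3 libraries without agonist came from 8 mice that received the solvent. Mating followed 4 weeks after, and the lining was scraped off on day 4 of pregnancy. ICR is an outbred strain. No label says which mouse gave which library, so the p-values speak of the spread among libraries, which may in part be technical.

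Water follows salt across the uterine epithelium. Chloride enters the cell at its base through the cotransporter NKCC1, the product of Slc12a2, and leaves into the lumen through CFTR, which draws fluid into the lumen. ENaC takes sodium up from the lumen and so removes fluid, and the alpha, beta and gamma subunits together give the full current. Aquaporins are the membrane pores that let the water through. In the rodent uterus, estrogen is known to raise Cftr and luminal fluid, and progesterone to favour absorption, so that the lumen closes around the embryo before implantation.

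Library totals ran from 11720958 to 14104266 counts, at which 3 counts correspond to 0.213 to 0.256 CPM, the read count scaled to the size of the library. Reads of 18S ribosomal RNA (Rn18s-rs5) made up 1.94% of agonist library 1 and 3.31% of no-agonist library 2, and 0.254 to 0.369% of the others. Endometrial markers were present, with 12 of 12 epithelial, 9 of 9 stromal and 4 of 7 uterine gland genes tested. The 7 gland genes summed to 68.5 to 282 CPM in the agonist libraries and 96.7 to 139 CPM in those without agonist. Of the 4 tested, 3 lay higher with the agonist and 1 lower. The gland gene Cxcl15 measured 1.36, 82.2 and 69.8 CPM with the agonist and 0.755, 1.04 and 0 CPM without it. Means with and without agonist were 56.9 and 16.4 CPM for Aldh1a1, 14.5 and 13.9 CPM for Foxa2 and 60.7 and 89.1 CPM for Sox9. For Aldh1a1, Foxa2 and Sox9 the groups overlapped. Smooth muscle was present too: the 8 genes of that list summed to 2937 to 11826 CPM in the agonist libraries and 7590 to 19261 CPM in those without agonist. In edgeR's quasi-likelihood test 0 of 16581 genes passed a Benjamini-Hochberg adjusted p of 0.05. At an unadjusted p under 0.05 there were 691 genes higher and 844 lower, or 1192 and 520 when libraries were scaled by their totals alone, a scaling under which the median log2 fold change over all genes tested was 0.183 and not 0.018.

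Cftr and Scnn1g were the members whose libraries did not overlap between the groups, as was so for 14.5% of all genes tested. For Scnn1g this rests on 16 reads in all, too few for a test. By this rule the 250 bases before their start sites are shown, 5′ to 3′, on the strand of the gene (RefSeq, GRCm38.p6). The Cftr stretch is chr6:18170437-18170686 and the Scnn1g stretch chr7:121734229-121734478, both on the plus strand. Capitals mark GC boxes, the letters GGGCGG on either strand, which are binding motifs of the SP family of transcription factors.
Cftr: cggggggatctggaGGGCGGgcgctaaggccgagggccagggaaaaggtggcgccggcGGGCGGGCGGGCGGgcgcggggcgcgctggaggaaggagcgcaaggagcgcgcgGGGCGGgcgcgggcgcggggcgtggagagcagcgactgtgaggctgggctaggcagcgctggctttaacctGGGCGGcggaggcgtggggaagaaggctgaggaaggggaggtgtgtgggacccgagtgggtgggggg
Scnn1g: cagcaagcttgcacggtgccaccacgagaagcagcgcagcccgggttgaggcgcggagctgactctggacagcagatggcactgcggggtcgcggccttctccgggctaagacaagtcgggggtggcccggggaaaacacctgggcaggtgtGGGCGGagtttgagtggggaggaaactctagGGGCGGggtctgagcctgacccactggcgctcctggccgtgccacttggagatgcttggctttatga
The Cftr stretch held 6 GC boxes, 3 of them overlapping in a run that begins 192 bases before the start, and its GC content was 76.4%. The Scnn1g stretch held 2 and had a GC content of 65.2%, against a median of 52.4% over 32817 such windows of the mouse genome. A GC box was found in 6 of the 7 windows available for these genes and in 32.7% of all windows. The palindromic estrogen response element, GGTCA facing TGACC across NNN, was in 0 of 7 and in 0.064% of all windows, the TATA box TATAAA in 1 of 7 (Aqp3) and in 12.4% of all. The steroid receptor element ACANNNTGT was in 0 of 7 windows and in 5.84% of all. The shorter GGTCA was in 3 of 7 windows, those of Aqp5, Scnn1b and Scnn1g, and in 35.2% of all.

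Compared per kilobase of exon, the 10 genes spanned a wide range. Aqp5, the water channel of secretory epithelia, was the most abundant with 76.98 ± 29.1 CPM per kb in the agonist libraries and 126 ± 71.3 CPM per kb without agonist (mean ± SD, n = 3 each). Its mean exceeded that of 96.5% of the tested genes with a known length. Aqp1 came next (63.0 ± 11.2 and 60.3 ± 21.3 CPM per kb), followed by Slc12a2 (9.08 ± 3.17 and 12.5 ± 2.97) and Cftr (5.69 ± 1.29 and 13.96 ± 5.57). The order of Aqp5 and Aqp1 held in 4 of 6 libraries and that of Slc12a2 and Cftr in 4 of 6, so neither pair differed beyond its spread, while Aqp1 lay above Slc12a2 in 6 of 6. Scnn1b, Aqp4, Aqp8, Aqp3 and Scnn1a had means over all libraries of 3.66, 2.51, 2.28, 1.84 and 1.67 CPM per kb. Scnn1g stood last at 0.0688 CPM per kb, below Scnn1a in 6 of 6 libraries.

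**Figure D1:**
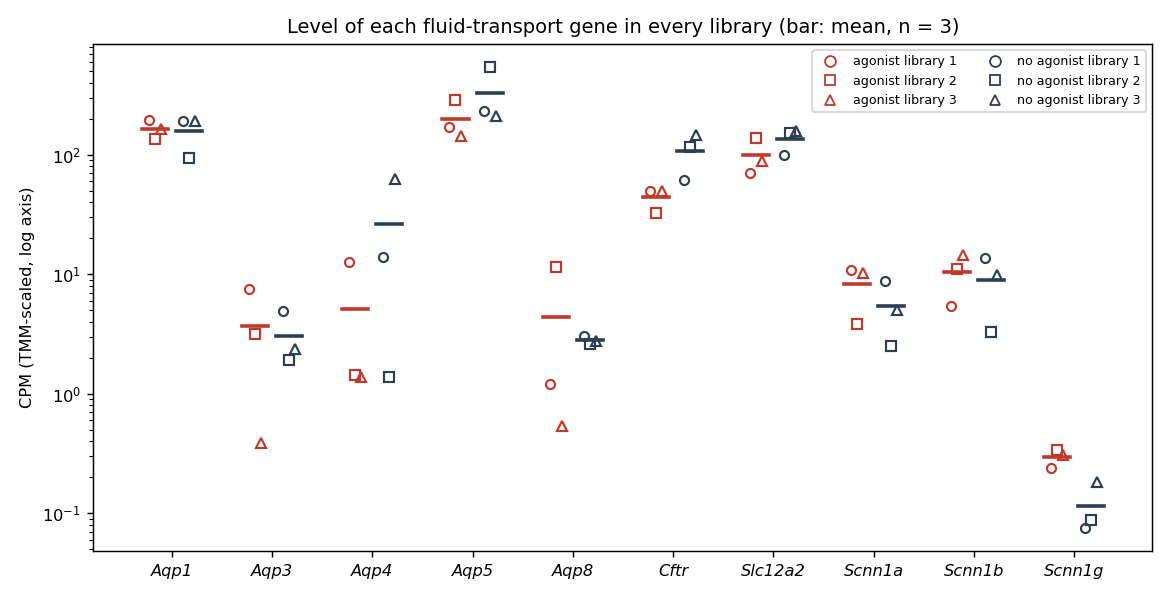
Level of each of the 10 genes in every library, in CPM on a log axis, with agonist libraries in red to the left and no-agonist libraries in dark blue to the right. Bars are group means of 3 libraries. The groups do not overlap for Cftr and for the barely detected Scnn1g, and Aqp8 is high in agonist library 2.

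For Cftr, the gene of the apical chloride channel (chromosome 6, 18170687 to 18322768, GRCm38), the level was lower in the agonist group. The agonist libraries held 49.9, 32.6 and 50.01 CPM of it, and the libraries without agonist 61.7, 117 and 147 CPM. Every agonist library lay below every other library, and the nearest values of the groups were 50.01 and 61.7 CPM. The means were 44.2 ± 10.0 and 108 ± 43.2 CPM (SD, n = 3 each), a 2.45-fold lower level, with a log2 fold change of -1.29 ± 0.34 (SE; 95% interval -2.09 to -0.50). The unadjusted p was 0.00579, rank 286 of 16581 genes, and the difference did not pass edgeR's quasi-likelihood test after adjustment (adjusted p = 0.329). DESeq2 called it (adjusted p = 0.0314) and so did edgeR's likelihood ratio test (adjusted p = 0.0492), tests that called 2.43% and 1.62% of all genes, whereas limma-voom did not (adjusted p = 0.365). Its log2 fold change was negative in 15 of 15 alternative analyses, and ranged from -1.01 without no-agonist library 3 to -1.58 without no-agonist library 1. The alternatives reuse the same libraries, and as the groups did not overlap, the sign could hardly turn. In 129 of its 7765 exonic bases Cftr overlaps the antisense gene Gm15592. Gm15592 is not among the genes of the count table by this symbol, and whether the counting used strand is not given in the sources used here. How reads from those bases were counted therefore cannot be told.

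Epithelial markers were measured beside Cftr. Of 12, 11 had a lower mean with the agonist and 1, Grhl2, a higher one, with a median log2 fold change of -0.63 against 0.018 over all genes tested, and their summed level was 4757 to 7141 CPM in the agonist libraries and 8392 to 13510 CPM without agonist. By edgeR's quasi-likelihood test 0 of the 12 passed the adjusted threshold and 6 had an unadjusted p under 0.05 (9.26% of all genes), DESeq2 called 2 and the likelihood ratio test 1, and the groups did not overlap for 4 (14.5% of all genes). Set against the mean log2 CPM of the epithelial genes Epcam, Cdh1, Krt8, Krt18 and Cldn7 of its own library, Cftr was at -3.63, -4.16 and -3.09 with the agonist and -3.31, -3.05 and -2.37 without it. These groups overlapped, since agonist library 3 lay above no-agonist library 1. The difference was -0.72 on the log2 scale (exact two-sided permutation p = 0.2, adjusted p = 1 over 9 genes, as for the other 8; 3 against 3 cannot go below 0.1). The part of the epithelial difference in the Cftr level was not tested beyond this ratio, and in bulk tissue fewer epithelial cells and less RNA per cell cannot be told apart.

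**Figure D2:**
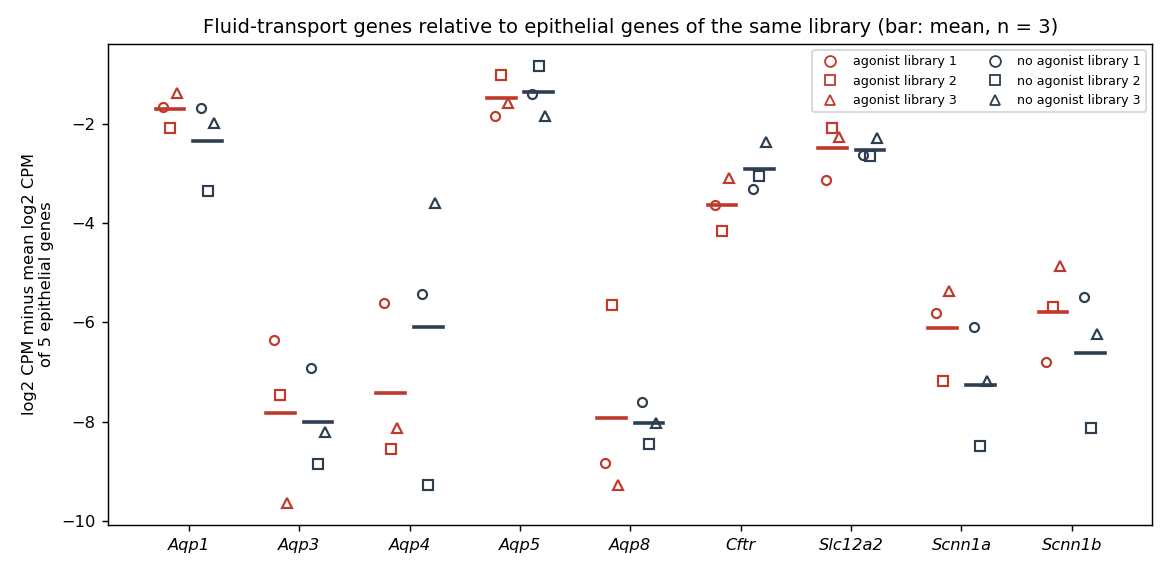
Log2 CPM of the 9 tested genes minus the mean log2 CPM of 5 epithelial genes in the same library, agonist in red and left, no agonist in dark blue and right, with bars at group means. The Cftr groups, separate in CPM, overlap on this scale, and 0 of the 9 genes separate the groups.

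Slc12a2, which loads the cell with chloride (chromosome 18, 57878678 to 57946821), measured 70.8, 138 and 89.0 CPM with the agonist and 98.8, 153 and 157 CPM without it. Agonist library 2 lay within the other group and the remaining 2 below it. Its log2 fold change was -0.46 ± 0.30 (95% interval -1.16 to 0.25), with an unadjusted p of 0.172 and an adjusted p = 0.709 by edgeR's quasi-likelihood test. Without agonist library 2 it was -0.77 (unadjusted p = 0.0316, adjusted p = 0.571). Relative to the 5 epithelial genes the groups differed by 0.03 on the log2 scale (exact permutation p = 0.9).

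Over the 9 tested genes, 5 lay higher and 4 lower in the agonist group, with a median log2 fold change of 0.06 against 0.018 over all genes tested. With edgeR's quasi-likelihood test 0 of 9 genes passed the adjusted threshold (background 0%), and 1, Cftr, had an unadjusted p under 0.05, where 9.26% of all genes did (4.17% higher and 5.09% lower). DESeq2 called 1 (background 2.43%), the likelihood ratio test 1 (background 1.62%) and limma-voom 0 (background 0%). The groups did not overlap for 1 of the 9, against 14.5% of all genes tested (6.94% with the agonist libraries above and 7.61% with them below).

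**Figure D3:**
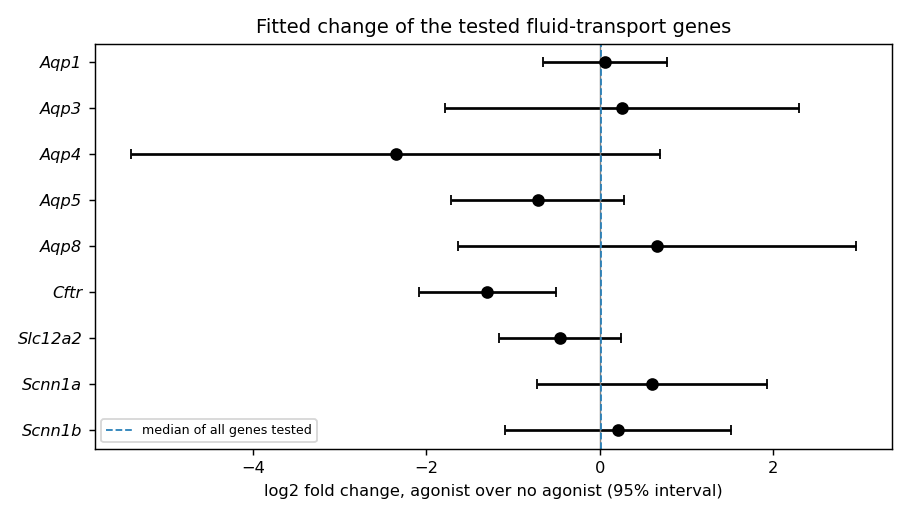
Log2 fold change, agonist over no agonist, of the 9 tested genes with 95% intervals from the quasi-likelihood fit. The dashed line is the median of all genes tested (0.018). The Cftr interval (-2.09 to -0.50) lies below 0 and the others include it.

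The sodium channel subunits were low and did not separate the groups where they could be tested. Scnn1a (chromosome 6, 125320659 to 125344943), the alpha subunit, measured 10.9, 3.87 and 10.2 CPM with the agonist and 8.83, 2.52 and 5.05 CPM without it. The groups overlapped, and library 2 was the lowest of each group. The log2 fold change was 0.60 ± 0.57 (95% interval -0.72 to 1.92; edgeR quasi-likelihood adjusted p = 0.808). Scnn1b (chromosome 7, 121865038 to 121918514), the beta subunit, measured 5.46, 11.1 and 14.5 CPM with the agonist and 13.6, 3.31 and 9.92 CPM without it, so that the ranges nearly coincided. Its log2 fold change of 0.21 ± 0.56 (95% interval -1.10 to 1.52) was smaller than its error. The gene overlaps Cog7 on the opposite strand but shares 0 exonic bases with it, and Cog7 measured 43.3 ± 8.21 and 48.1 ± 2.42 CPM.

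Scnn1g, the gamma subunit (chromosome 7, 121734479 to 121768475), had 3, 5 and 4 reads in the agonist libraries and 1, 1 and 2 reads in the others. The groups did not overlap, yet 12 against 4 reads gave a ratio of 2.66 with a 95% exact interval of 0.806 to 11.3 that covers counting error alone and includes 1. With no filter on low counts its edgeR quasi-likelihood p was 0.213 (adjusted p = 0.785). Of the summed CPM per kb of the 3 subunits, Scnn1g made up 1.68, 2.15 and 1.28% with the agonist and 0.345, 1.53 and 1.22% without it. The beta subunit was the most abundant in 5 of 6 libraries. Scnn1a held 55.1, 17.7 and 30.7% in the agonist libraries, a wider range than its 29.2, 32.2 and 24.2% in the others.

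**Figure D4:**
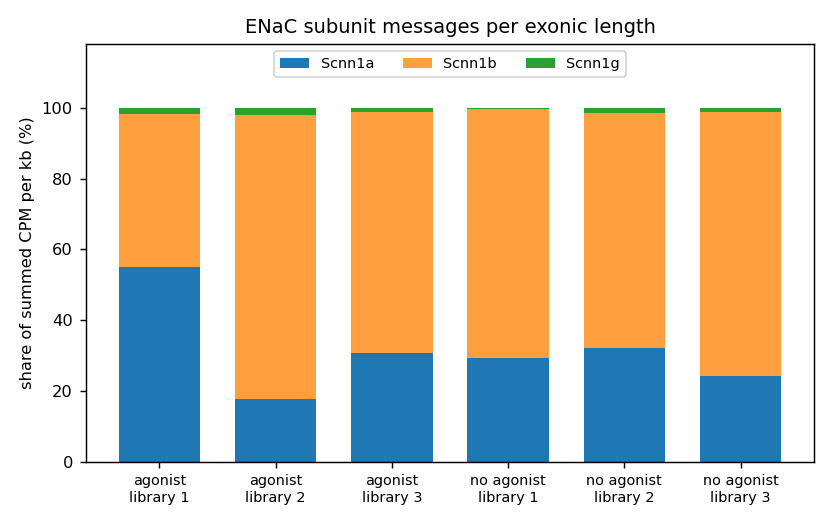
Share of each ENaC subunit in the summed CPM per kb of the 3 subunits, for each library, agonist on the left. Scnn1b holds the largest share in every library but agonist library 1, where Scnn1a holds 55.1%, and Scnn1g stays under 3% throughout.

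A ratio within a library does not depend on how libraries were scaled. There were 4.57, 8.42 and 4.89 Cftr reads for each Scnn1a read in the agonist libraries and 6.98, 46.2 and 29.1 in those without agonist. Agonist library 2 lay above no-agonist library 1, so the groups overlapped, while no-agonist libraries 2 and 3 stood well above all others. These had 29 and 55 Scnn1a reads, so counting error bears on their ratios. No-agonist library 2 also had the highest 18S share (3.31%). The ratio of Slc12a2 to Scnn1a reads was 6.49, 35.6 and 8.70 with the agonist and 11.2, 60.7 and 31.0 without it. In both groups library 2 held the highest of these ratios, and replicate numbers carry no pairing.

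Aqp5 (chromosome 15, 99590782 to 99594829) measured 172, 286 and 142 CPM with the agonist and 233, 542 and 211 CPM without it. The highest value was that of no-agonist library 2, one of the pair with a high 18S share, and agonist library 2 lay above the other no-agonist libraries. The log2 fold change was -0.72 ± 0.43 (95% interval -1.72 to 0.29; edgeR quasi-likelihood adjusted p = 0.674), and -0.14 without no-agonist library 2. Relative to the epithelial genes the difference was -0.13 (exact permutation p = 0.8).

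Aqp1 (chromosome 6, 55336432 to 55348555), the water channel of red cells and of capillary endothelium, was the steadiest of the 10 genes. It measured 195, 137 and 164 CPM with the agonist and 190.0, 94.0 and 192 CPM without it, and the log2 fold change was 0.06 ± 0.31 (95% interval -0.65 to 0.78). Markers of both of these cell types varied beside it. All 9 endothelial markers lay higher with the agonist, as did 52.2% of all genes tested, their sum being 434 to 627 CPM against 320 to 407 CPM without it. After adjustment 0 of the 9 passed by the quasi-likelihood test, DESeq2 or the likelihood ratio test. By the quasi-likelihood test 3 had an unadjusted p under 0.05 (9.26% of all genes), and the groups did not overlap for 3 (14.5% of all genes). The red cell sum was 347 to 1883 CPM with the agonist and 120 to 1048 CPM without it, with Hbb-b1 and Hbb-b2 at 0 reads in all libraries. Their part in the Aqp1 level was not tested.

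Aqp4, Aqp8 and Aqp3 were low and uneven. Aqp4 (chromosome 18, 15389496 to 15410982), best known from astrocytes and from the base of some epithelia, measured 12.6, 1.43 and 1.39 CPM with the agonist and 14.04, 1.39 and 63.2 CPM without it. No-agonist library 3 stood apart, and the groups overlapped. The log2 fold change of -2.35 ± 1.31 (95% interval -5.40 to 0.69; edgeR quasi-likelihood adjusted p = 0.649) was -0.59 without that library and -4.20 without agonist library 1. The smooth muscle sum was 11826, 2937 and 3615 CPM with the agonist and 8032, 7590 and 19261 CPM without it, also highest in no-agonist library 3. The part of muscle tissue in the Aqp4 values was not tested.

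Aqp8 (chromosome 7, 123462291 to 123468004), a water channel that also passes hydrogen peroxide, measured 1.203, 11.5 and 0.539 CPM with the agonist and 3.02, 2.61 and 2.76 CPM without it. The libraries without agonist were nearly equal, with an SD of 0.207 CPM. These values rest on 15, 169 and 7 reads with the agonist and 40, 30 and 30 reads without it. Counting error therefore limits what the near equality can show. The agonist libraries spanned 21.3-fold, and library 2 lay above the others while libraries 1 and 3 lay below all 3 of the group without agonist. Its log2 fold change of 0.66 ± 0.99 (edgeR quasi-likelihood adjusted p = 0.893) therefore became -1.67 without agonist library 2 (unadjusted p = 0.0224, adjusted p = 0.554).

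Aqp3 (chromosome 4, 41092722 to 41098183), which passes glycerol as well as water, measured 7.46, 3.19 and 0.385 CPM with the agonist, the last of these from 5 reads, and 4.91, 1.91 and 2.39 CPM without it. The agonist range enclosed that of the other group, and the log2 fold change was 0.25 ± 0.88 (adjusted p = 0.965), or -0.76 without agonist library 1. That library also held 191 CPM of the 5 oviduct and ciliated cell markers, of which 173 CPM was Ovgp1, where the other 5 libraries held 12.0 to 25.4 CPM. The ciliated cell genes Foxj1, Dnah5 and Ccdc39 were not highest there, at 1.52, 1.28 and 2.09 CPM against 6.77, 2.85 and 2.46 CPM in agonist library 3, while Rsph1 was, at 13.4 CPM against 4.92 to 10.5 CPM elsewhere. The part of oviduct tissue in the Aqp3 level was not tested.

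The remaining aquaporins were nearly absent, except Aqp11, an intracellular aquaporin. Of the 7 listed (Mip, Aqp2, Aqp6, Aqp7, Aqp9, Aqp11 and Aqp12), only Aqp11 was tested. It measured 3.69, 14.9 and 11.2 CPM with the agonist and 3.40, 1.57 and 0.918 CPM without it. The groups did not overlap, as was so for 14.5% of all genes tested, although agonist library 1 and no-agonist library 1 were close. The log2 fold change was 2.33 ± 0.67 with an unadjusted p of 0.00877, and it did not pass adjustment (edgeR quasi-likelihood adjusted p = 0.354). DESeq2, which called 2.43% of all genes, called Aqp11, and the likelihood ratio test, which called 1.62%, did not. Aqp2, Aqp7 and Aqp9 had 15, 18 and 26 reads in all, Mip and Aqp12 had 1 each and Aqp6 had 0.

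Regulators of ENaC were split, 7 of 15 tested being higher and 8 lower, with a median log2 fold change of -0.24. By edgeR's quasi-likelihood test 0 passed the adjusted threshold and 3 had an unadjusted p under 0.05 (1 higher and 2 lower), while DESeq2 and the likelihood ratio test called 1 each. The shares over all genes were 9.26% at the unadjusted threshold, 2.43% with DESeq2 and 1.62% with the likelihood ratio test. Tmprss4, a membrane serine protease, measured 155 ± 76.6 CPM with the agonist and 479 ± 58.9 CPM without it (log2 fold change -1.63 ± 0.40; edgeR quasi-likelihood adjusted p = 0.316). St14, matriptase, measured 315 ± 78.8 and 512 ± 72.5 CPM (adjusted p = 0.481). Prss8, prostasin, a further membrane protease known to activate ENaC, lay the other way at 104 ± 29.3 and 76.8 ± 28.2 CPM (adjusted p = 0.754). Of the protease inhibitors, Spint2 measured 595 ± 214 and 968 ± 175 CPM (adjusted p = 0.558). Usp2, a deubiquitinase, measured 29.0 ± 9.69 and 13.02 ± 4.73 CPM (adjusted p = 0.401). The groups did not overlap for 4 of the 15, Usp2 above and Tmprss4, St14 and the protease inhibitor Spint1 below, against 14.5% of all genes tested. Spint1, which like Prss8 was named after its values were seen, measured 105 ± 1.41 CPM with the agonist and 128 ± 5.77 CPM without it (adjusted p = 0.666).

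Of the chloride and bicarbonate transport genes, 14 of 17 tested lay lower and 3 higher, with a median log2 fold change of -0.32. The quasi-likelihood test passed 0 after adjustment and 1 at an unadjusted p under 0.05, where 9.26% of all genes did, and DESeq2 and the likelihood ratio test called 1 each (2.43% and 1.62% of all genes). The calcium-activated chloride channel regulator deposited as Clca3 measured 1153 ± 888 CPM with the agonist and 7063 ± 4488 CPM without it (adjusted p = 0.332). The carbonic anhydrase Car2, which supplies bicarbonate, measured 501 ± 130.2 and 742 ± 25.1 CPM (adjusted p = 0.565). The groups did not overlap for 2 of the 17, Clca3 and Car2, both lower with the agonist, against 14.5% of all genes tested. The calcium-activated chloride channel Ano1 measured 41.6 ± 28.5 and 19.1 ± 17.3 CPM (adjusted p = 0.682), and the scramblase Ano6 107 ± 21.9 and 139 ± 23.2 CPM (adjusted p = 0.674).

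Among kinases and other partners of NKCC1 and CFTR, 8 of 14 tested lay higher and 6 lower, with a median log2 fold change of 0.08. By the quasi-likelihood test 0 had an unadjusted p under 0.05 (9.26% of all genes). DESeq2 called 0 (2.43% of all genes) and the likelihood ratio test 0 (1.62%). The groups did not overlap for 1 of the 14, Slc12a7, against 14.5% of all genes tested. The potassium-chloride cotransporter gene Slc12a7 measured 57.9 ± 12.6 CPM with the agonist and 42.7 ± 2.73 CPM without it (adjusted p = 0.569). The scaffold Slc9a3r2 and the kinase subunit Prkaca had log2 fold changes of 0.53 ± 0.38 and 0.22 ± 0.20, and for both the groups overlapped.

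The sodium pump and basolateral potassium channel genes were split evenly, 7 of 14 higher and 7 lower (median log2 fold change -0.09). The quasi-likelihood test passed 0 after adjustment and 3 at an unadjusted p under 0.05, these being lower as were 5.09% of all genes. DESeq2 called 1 (2.43% of all genes) and the likelihood ratio test 0. Fxyd4, a small modulator of the pump, measured 110, 88.8 and 88.2 CPM with the agonist and 125, 244 and 390.0 CPM without it (log2 fold change -1.40 ± 0.39; adjusted p = 0.337). As for Cftr, all agonist libraries lay below the others and the largest value was that of no-agonist library 3. The pump's beta subunit Atp1b3 measured 122 ± 36.2 and 209 ± 10.1 CPM (adjusted p = 0.397), whereas another beta subunit, Atp1b1, measured 82.6 ± 35.5 and 54.3 ± 9.40 CPM (adjusted p = 0.623). The potassium channel Kcnn4 measured 53.3 ± 24.1 and 120 ± 53.2 CPM (adjusted p = 0.478).

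**Figure D5:**
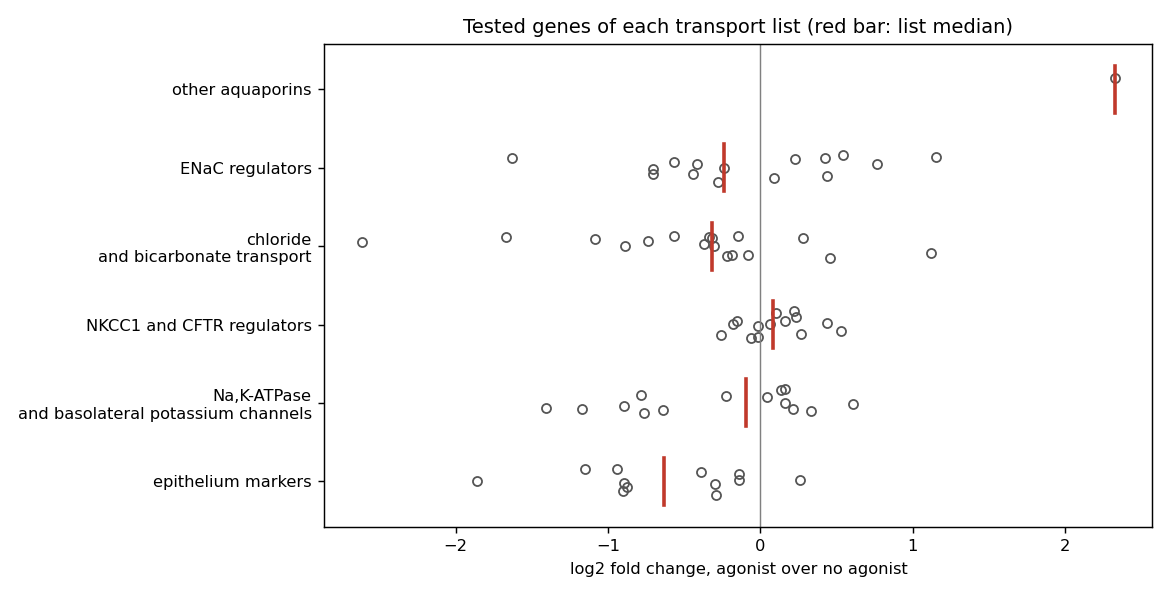
Log2 fold change, agonist over no agonist, of each tested gene (circles) in 5 transport lists and the epithelial markers, with red bars at list medians. The epithelial markers have the lowest median, -0.63, the chloride and bicarbonate genes lie mostly below 0, and Aqp11 is the 1 tested gene of the other aquaporins.

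Hormone-responsive genes of the same libraries were set beside these values. Of 12 estrogen-induced genes 11 lay lower with the agonist (median log2 fold change -1.92), and of 6 tested progesterone-induced genes 5 lay higher (median 1.69), in lists drawn up with earlier results of these libraries known. The quasi-likelihood test passed 0 of either after adjustment, with 9 estrogen-induced and 5 progesterone-induced genes at an unadjusted p under 0.05 (9.26% of all genes). DESeq2 called 7 and 2 of them (2.43% of all genes), and the likelihood ratio test 4 and 2 (1.62%). The summed estrogen-induced level was 3340 to 13376 CPM with the agonist and 16714 to 33735 CPM without it. Its part in the Cftr level was not tested.

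By root mean square difference of centred log2 CPM over the 6 libraries, the genes most like Cftr among 12874 candidates were Sphk1 (0.20), Fxyd4 (0.22) and Slc27a2 (0.23). Those most like Scnn1a were Cd1d1 (0.17), Gpsm1 (0.21) and Klf11 (0.23), and those most like Scnn1b were Colec12 (0.23), Snx29 (0.25) and Tyrobp (0.25). For Aqp4 the nearest were Gm1965, Oas3 and Ptprh, at 0.68, 0.69 and 0.78. The measure is not scaled to the range of a gene over the libraries. This range was 5.36 log2 units for Aqp4, 2.17 for Cftr, 2.04 for Scnn1a and 2.07 for Scnn1b. The larger differences for Aqp4 therefore do not show a pattern less shared than the others.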

How the data were processed

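RNA-seq read counts per gene were deposited by the authors as whole numbers in 1 table with a column for each of 6 libraries, without recorded normalization. HTSeq 0.6.1 and the builds mm10 and GRCm38 are named per the submitters' processing notes, and the libraries are single-end Ion Proton reads of total RNA per the labels' protocols. The sources used here name no aligner, annotation, strand setting or filter.

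Counts were analysed in R 4.3.3 with DESeq2 1.42.0, limma 3.58.1 and edgeR 4.0.16. The filter was filterByExpr, scaling was by TMM factors, and the groups were compared by edgeR's quasi-likelihood F-test, with Benjamini-Hochberg adjustment over 16581 genes. CPM uses TMM-scaled totals; log2 CPM for ratios and likeness has a prior count of 2. The script was tested on simulated data. At the dispersion, or spread among libraries, observed here, it recovered 3 of 100 simulated 2-fold changes and 47 of 98 simulated 4-fold changes. A gene that did not pass is therefore not shown to be unchanged. Exonic lengths, positions and overlaps come from GENCODE M21 (GRCm38), which held all 10 symbols. Promoter windows come from RefSeq (GRCm38.p6) and were matched by symbol for 7 of the genes.

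The genes and the lists were chosen with earlier results of these data known. Up to 4 genes of each transport list with the smallest p were named; 1 of these genes is not reported here. The floors and the exact interval of the Scnn1g read ratio cover counting error alone; intervals of fold changes come from the quasi-likelihood fit and include the spread among libraries. Alternatives covered scaling, filtering, other tests and leaving out libraries.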

Additional observations from a re-analysis of the deposited data

How the results depend on the processing

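The quasi-likelihood test called 0 genes, against 394 with DESeq2, 268 with the likelihood ratio test, 36 with no filter on low counts, and 0 to 1 with a library left out. Without the pair of libraries with the highest 18S share, an alternative chosen after seeing the data, it called 7. Among the fluid-transport genes 0 were called, against 1 (Cftr) with DESeq2 and with the likelihood ratio test. The number at an unadjusted p under 0.05 was 1, or 2 with no filter, 2 without the high-18S pair and 1 to 3 with a library left out, Aqp4, Aqp8 or Slc12a2 then joining Cftr. Over all genes tested it was 1535 of 16581. With no filter it was 2201 of 28089, and without the high-18S pair 1906 of 16838. With a library left out it ran from 1063 of 17033 to 1981 of 17046. Relative to the epithelial genes 0 separated the groups, or 0 to 3 with a library left out. Groups separate more easily with fewer libraries, and the share over all genes on this scale was not computed.

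Directions turned for genes whose change was within its error. With limma-voom the log2 fold changes of Aqp3 and Aqp8 were -0.42 and -0.43, and without the high-18S pair those of Aqp1 and Aqp3 were -0.33 and -1.01. With a library left out, log2 fold changes ranged from -0.20 to 0.23 for Aqp1, -0.76 to 0.79 for Aqp3, -1.67 to 1.19 for Aqp8 and -0.18 to 0.65 for Scnn1b. Differences relative to the epithelial genes then ranged from -0.55 to 1.09 for Aqp3, -0.37 to 0.13 for Aqp5, -1.03 to 0.78 for Aqp8 and -0.17 to 0.35 for Slc12a2. The cause was not tested. Leaving out a library could hardly turn the sign for Cftr, whose groups did not overlap. Cftr, Slc12a2, Aqp4, Aqp5 and Scnn1a kept the sign of their log2 fold change in 15 of 15 alternatives each. Their sizes moved, over -1.58 to -1.01 for Cftr, -0.77 to -0.16 for Slc12a2, -4.76 to -0.59 for Aqp4, -1.06 to -0.04 for Aqp5 and 0.02 to 1.14 for Scnn1a, and the values nearest 0 for Slc12a2, Aqp5 and Scnn1a were those without both libraries with the highest 18S share. The low reads of Scnn1g, Aqp3 and Aqp8 limit what these libraries can show for them. No paired analysis was possible because the groups share no replicate numbers in the labels.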

Other observations

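Slc26a4, which encodes the anion exchanger pendrin and was picked after its values were seen, measured 66.2, 5.09 and 0.692 CPM with the agonist and 3.25, 4.35 and 221 CPM without it. No-agonist library 3 held the highest value of both Slc26a4 and Aqp4, and agonist library 1 the highest of both within the agonist group. In no-agonist library 1 Aqp4 was at 14.04 CPM and Slc26a4 was low. The log2 fold change of Slc26a4 was -1.67 ± 1.81 (edgeR quasi-likelihood adjusted p = 0.841).

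Hsd11b2, which protects the mineralocorticoid receptor from glucocorticoids and was also picked after its values were seen, measured 27.0, 256 and 50.9 CPM with the agonist and 124, 144 and 126 CPM without it. Like Aqp8, it was nearly equal in the libraries without agonist (SD 11.3 CPM), above them in agonist library 2 and below them in agonist libraries 1 and 3. Its log2 fold change was -0.24 ± 0.72 (edgeR quasi-likelihood adjusted p = 0.958).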
